A study of Mus musculus with 6 samples.

Results

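The proteasome is the barrel-shaped protease that breaks down ubiquitin-tagged proteins in the cytosol and nucleus. Its core particle is a stack of alpha rings (PSMA genes) that gate entry and beta rings (PSMB genes) that carry the proteolytic sites. The regulatory cap binds the ends of the core, and its ATPases (PSMC genes) unfold substrates while its other subunits (most PSMD genes) bind ubiquitin chains and remove them. Other PSM genes encode activators (PSME), an inhibitor (PSMF1) and chaperones that help to assemble the particle (PSMG and a few PSMD genes). In cells whose proteasome is inhibited, the transcription factor NFE2L1 is known to raise the expression of subunit genes together. Dividing tumour cells, which make and turn over much protein, are known to carry abundant proteasomes.

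The proteasome genes described here were those whose symbol is PSM followed by A to G and a number, without the interferon-inducible beta subunits PSMB8, PSMB9 and PSMB10, and with a mean of at least 1 FPKM (fragments per kilobase of transcript, scaled to the mapped fragments). Of 23284 symbols in the table, 48 matched the pattern, 45 remained without the 3 inducible subunits, and 43 reached the minimum. The 43 were 14 core subunits, 17 cap subunits, 4 activators, 1 inhibitor and 7 assembly chaperones. PSMD5, PSMD9 and PSMD10 were counted as chaperones, because their proteins help to build the cap base and leave it. The 2 genes below the minimum were PSMA8, a testis form of an alpha subunit, which was listed at 0 in all tumours, and PSMB11, a thymus form of a beta subunit, which was above 0 in 1 tumour at 0.0509 FPKM. The lowest genes inside the minimum, PSMD5 and PSMD9, had means of 19.2 and 20.1 FPKM, so the minimum fell in a wide gap.

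RNA came from 6 subcutaneous tumours of STS26T, a human cell line from a malignant tumour of the peripheral nerve sheath, grown in athymic nude mice, which lack mature T cells. In the anti-ENG group, 3 tumours came from mice given TRC105 with M1043, antibodies against human and mouse endoglin, and in the IgG control group 3 came from mice given the IgG control. Both were given at 10 mg/kg, 2 times a week by intraperitoneal injection, over 3 weeks, once tumours could be felt. The labels give no genotype change and no age, all tumours derive from 1 cell line, and the tumour mass also holds mouse host cells, whose reads enter only where they align to the human genome. Proteasome genes are much alike in human and mouse, and the sources used here do not give the handling of mouse reads.

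The number of genes at 1 FPKM or more was 12358 to 12624 per tumour. Total depth is unknown. From the lowest values, which step by what a single fragment is worth, depth was placed roughly, at up to 1.44 times that of IgG control 1 and highest in anti-ENG 1. Per tumour, the sum of deposited FPKM was between 410786 and 443148 in the IgG tumours and between 446100 and 475146 in the anti-ENG tumours, so these sums did not overlap. Schwann cell markers were near 0: S100B, SOX10 and ERBB3 each reached at most 0.326 FPKM, while the intermediate filament genes VIM and NES had means of 1780 and 46.9 FPKM. Of the marker lists for other cell types, the endothelial list summed to 4.69 FPKM or less, the muscle list to 2.3 or less and the adipocyte list to 0.603 or less (LEP at 0 in all tumours). Of the 4 keratinocyte markers KRT10 alone had a mean of at least 1 FPKM, and KRT1 was at 0 in all tumours. The 6 leukocyte markers, led by CD68, summed to 63.7 to 122 FPKM in the IgG tumours and 75.4 to 102 in the anti-ENG tumours, with PTPRC at 1.13 or less. All 6 fibroblast markers were expressed, led by COL1A1 and COL3A1 with means of 441 and 283 FPKM, while DCN and LUM had 18.5 and 10.4. Whether tumour or host cells expressed them was not tested. The sum of the 6 was 713 to 1350 FPKM in the IgG tumours and 318 to 848 in the anti-ENG tumours. The part of that difference in the results below was not tested.

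Proteasome genes were among the abundant transcripts of these tumours, and the core was read at a higher level per gene than the cap. In the IgG tumours the median core gene had 101 FPKM and the median cap gene 73.6 FPKM. Among the 14 core genes, group means ran from 27.6 FPKM for PSMB2 to 331 FPKM for PSMA7, a 12-fold range. PSMA7 (319 to 354 FPKM) lay above PSMB4 (250 to 266 FPKM), the next in order, in each IgG tumour. PSMB2 and PSMA5, at the lower end, had group means of 27.6 and 27.7 FPKM and did not differ beyond their spread. The range was narrower among the 17 cap genes, 5.75-fold, from PSMD11 at 26 FPKM to PSMD4 at 149 FPKM. PSMD4 lay above the next gene, PSMD2 at 140 FPKM, in each IgG tumour, though their ranges overlapped (140 to 157 and 130 to 156 FPKM). These subunits share a complex in which most stand in equal number, and FPKM is per length, so their transcripts were not read in equal number. Of the 43 genes, 26 lay in the top 10% of tested genes by mean FPKM, including 12 of the 14 core and 12 of the 17 cap genes.

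The comparison asks whether blocking endoglin on tumour and host cells went with a different level of proteasome transcripts, and whether core and cap moved alike. All 14 core genes and all 17 cap genes had higher estimates in the anti-ENG tumours, a median of 1.23-fold for the core (median log2 fold change 0.30) and 1.18-fold for the cap (0.23), although no single gene passed the test. Fold changes are on the log2(FPKM + 1) scale. By limma, 0 of the 43 genes and 0 of the 12586 genes tested (0%) passed an adjusted p of 0.05, the lowest value being 0.529 in both. At an unadjusted p under 0.05 there were 11 of the 43 genes, all higher, where 5.56% of all tested genes were higher and 3.61% lower at that level. Over all 43 genes 41 had an estimate above 0, against 51.2% of all tested genes, and the median log2 fold change was 0.25 against 0.0065. In 22 of the 43 all 3 anti-ENG tumours lay above all 3 IgG tumours, against 10.6% of all tested genes, and in 0 did they lie below, against 6.75%. Genes of the same level leaned the same way to a smaller extent: of the top 10% of tested genes 72% had an estimate above 0, 28.8% had the anti-ENG tumours above all IgG tumours, and the median log2 fold change was 0.16. The 26 proteasome genes in that top 10% had a median of 0.25, with 14 of the 26 apart. In bulk tumours, more cells of a type and more RNA per cell cannot be told apart.

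**Figure D1:**
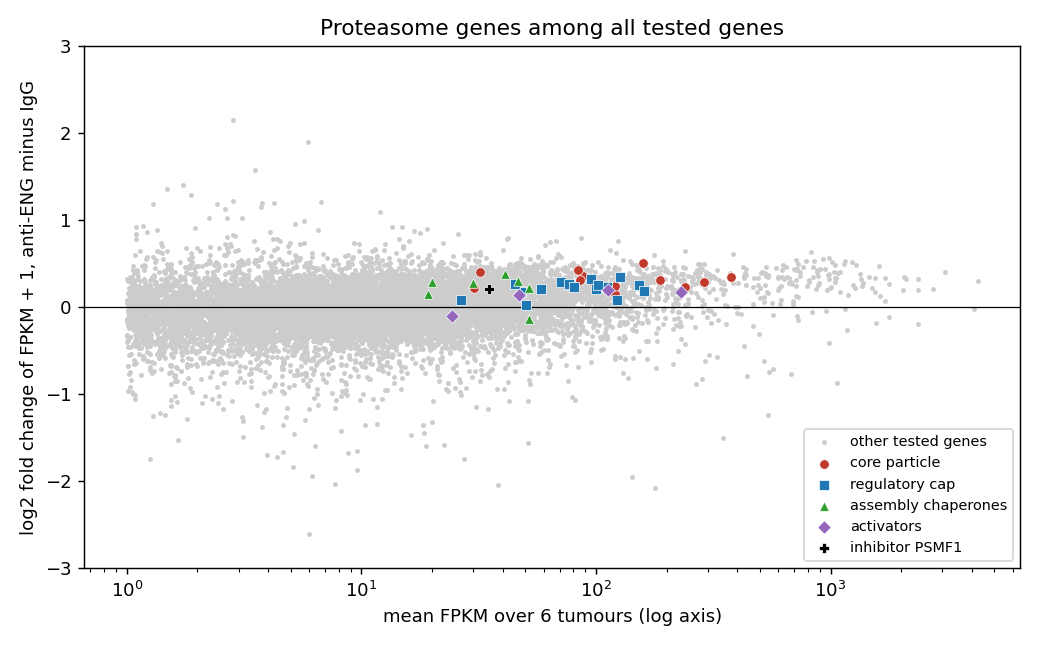
Each point is 1 of the 12586 tested genes, with its mean FPKM over 6 tumours (log axis) and its log2 fold change, anti-ENG minus IgG. The 43 proteasome genes, coloured by part, form a band at or above 0 in 41 cases, between -0.13 and 0.51, well inside the spread of the other genes.

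The direction of most genes held whichever tumour was left out. Anti-ENG 1 had the highest value in 28 of the 43 genes, against 30.5% of all tested genes, and IgG control 1 and anti-ENG 1 were the pair of tumours least alike over all genes. Without anti-ENG 1 the medians were 0.27 for the core and 0.18 for the cap, and with IgG control 1 left out as well they were 0.32 and 0.20, with all 31 of these genes still above 0 in either case. Of the 17 cap genes 15 stayed above 0 without IgG control 2, and 16 without anti-ENG 3. The size, and the counts of genes that passed either cut, depended on the scaling. The 11 genes at an unadjusted p under 0.05 became 0 with the same sum of FPKM, 2 with quantile and 2 with cyclic loess normalization, and 2 without IgG control 3. The 22 genes apart and higher became 9, 10 and 6 under those 3 scalings, and with the same sum 1 gene was apart and lower. Of all tested genes 33.1%, 52.8% and 48.9% had estimates above 0 under the 3, in the same order. The share of all tested genes apart is given for the deposited values alone, here and below. Counts of genes apart under other scalings thus have no such share beside them. With each tumour rescaled to the same sum of FPKM, which moved the median of all tested genes to -0.10, the core and cap medians were 0.18 and 0.11, thus 0.28 and 0.21 above that of all genes, and 14 of the 17 cap genes stayed above 0. That rescaling also turned the split of all tested genes at an unadjusted p under 0.05 from 700 higher and 454 lower to 168 higher and 1088 lower, and upper quartile rescaling gave 496 and 572, cyclic loess normalization 453 and 498. After cyclic loess normalization, which brought the top 10% of genes to a median of -0.0043, they were 0.14 and 0.10, and 13 of the 14 core and 15 of the 17 cap genes stayed above 0.

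**Figure D2:**
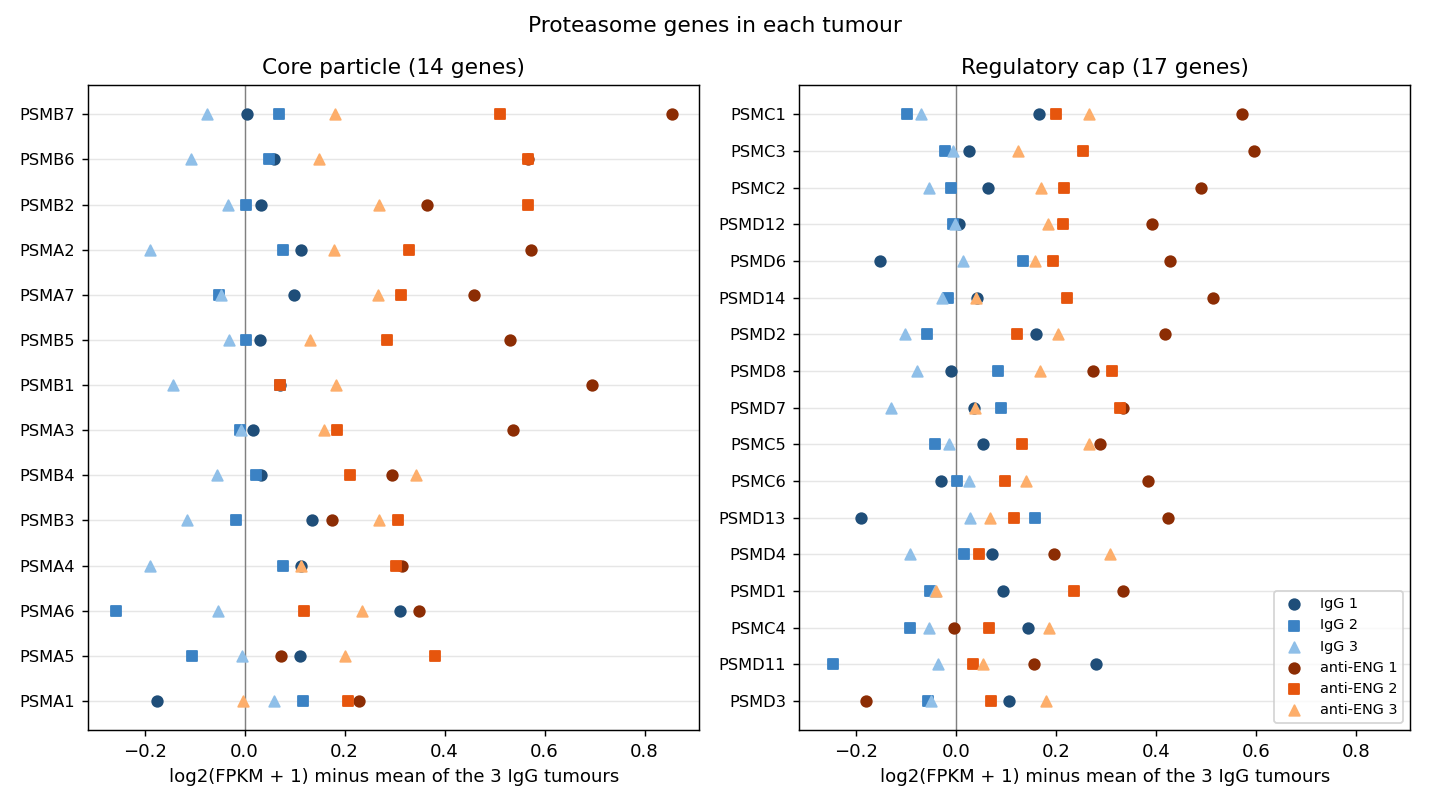
For each core gene (left) and cap gene (right), points show log2(FPKM + 1) in each of 6 tumours minus the mean of the 3 IgG tumours. The anti-ENG points (brown and orange) lie mostly to the right of the IgG points (blue), with anti-ENG 1 farthest to the right in 9 of the 14 core and 12 of the 17 cap genes.

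Within the core, both rings had higher estimates. All 7 alpha genes had estimates above 0, with a median log2 fold change of 0.24 and the groups apart in 3, PSMA2, PSMA3 and PSMA7. All 7 beta genes did too, with a median of 0.32 and the groups apart in 6, the exception being PSMB1. Of all tested genes 10.6% were apart and higher, and of the top 10% by level 28.8%. That top 10% held 6 of the 7 genes of each ring. The difference between the rings was not tested. The counts of genes apart were equal in alpha and beta under 3 other scalings, 2 each with the same sum of FPKM, 2 each with quantile and 1 each with cyclic loess normalization. After cyclic loess normalization the medians were 0.11 and 0.18, and the estimate of PSMA1 was -0.0094.

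The 3 proteolytic subunits of the beta ring all had the anti-ENG tumours above the IgG tumours in the deposited values. With sum rescaling, quantile or cyclic loess normalization the groups overlapped for PSMB5, PSMB6 and PSMB7 alike. PSMB7, the trypsin-like subunit, was read at 130, 136 and 123 FPKM in the IgG tumours, in replicate order, and at 235, 185 and 147 FPKM in the anti-ENG tumours. Anti-ENG 1 was far above the others, and anti-ENG 3 was only slightly above the highest IgG tumour. The means were 130 ± 6.51 and 189 ± 43.9 FPKM (SD, n = 3 each), the largest log2 fold change of the 43 genes at 0.51 (limma SE 0.18, adjusted p = 0.529). Without anti-ENG 1 it was 0.34. PSMB6, the caspase-like subunit, had 74.2, 73.7 and 66.0 FPKM in the IgG tumours and 106, 106 and 79.1 FPKM in the anti-ENG tumours. Its log2 fold change was 0.43 (limma SE 0.15, adjusted p = 0.529). PSMB5, the chymotrypsin-like subunit and the main site bound by bortezomib, had 77.4, 75.9 and 74.1 FPKM in the IgG tumours and 110, 92.6 and 83.1 FPKM in the anti-ENG tumours. The IgG tumours were tight, at 75.8 ± 1.65 FPKM, and the anti-ENG tumours spread more widely, at 95.1 ± 13.5 FPKM (SD, n = 3 each), which is a log2 fold change of 0.32 (limma SE 0.13, adjusted p = 0.529). For each of the 3 genes the exact two-sided permutation p was 0.1, the smallest that 3 tumours against 3 can give.

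Of the other core genes, PSMB2, a beta subunit without a proteolytic site, had the smallest unadjusted p of the core at 0.00918. It had 28.2, 27.6 and 26.9 FPKM in the IgG tumours and 35.8, 41.3 and 33.4 FPKM in the anti-ENG tumours, with the highest value in anti-ENG 2. The groups were apart by a gap wider than the spread of the IgG tumours, and the log2 fold change was 0.40 (limma SE 0.11, adjusted p = 0.529, exact permutation p = 0.1). PSMA7, the most abundant of the 43, had 354, 319 and 320 FPKM in the IgG tumours and 455, 411 and 398 FPKM in the anti-ENG tumours. Its means were 331 ± 20.2 and 421 ± 29.7 FPKM (SD, n = 3 each), which is a log2 fold change of 0.35 (limma SE 0.12, adjusted p = 0.529). At the low end of the core, PSMA1 had a log2 fold change of 0.15 (SE 0.13) with overlapping groups, from 101 to 124 FPKM under IgG and from 114 to 134 FPKM under anti-ENG.

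In the cap, both the ATPase ring that unfolds substrates and the other subunits had higher estimates. All 6 ATPase genes had estimates above 0 (median log2 fold change 0.26), with the groups apart in 5. The 11 other cap genes had a median of 0.23, with the groups apart in 3 (27.3%), PSMD6, PSMD8 and PSMD12. Of all tested genes 10.6% were apart and higher. Among the top 10% by level, which held 5 of the ATPase and 7 of the other genes, 28.8% were, close to the share of the other genes. The difference between ATPase and other genes was not tested. The genes apart numbered 3 ATPase and 1 other with sum rescaling or quantile normalization, 1 and 1 after cyclic loess, and 6 and 8 without IgG control 1. PSMC1 had 125, 104 and 106 FPKM in the IgG tumours and 166, 128 and 134 FPKM in the anti-ENG tumours, a log2 fold change of 0.35 (limma SE 0.14, adjusted p = 0.529). IgG control 1 and anti-ENG 2 lay close together, and anti-ENG 1 stood apart. PSMC2 had 66.6, 63.2 and 61.3 FPKM in the IgG tumours and 89.9, 74.1 and 71.8 FPKM in the anti-ENG tumours, a log2 fold change of 0.29 (limma SE 0.12, adjusted p = 0.529). PSMC4 was the ATPase gene with overlapping groups, at 120 ± 11.2 and 127 ± 8.75 FPKM (SD, n = 3 each), and its estimate of 0.082 turned to -0.038, -0.040 and -0.079 with the sum rescaling, quantile and cyclic loess normalization.

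Among the cap subunits that handle ubiquitin and hold the lid together, PSMD12, a lid scaffold subunit, had the tightest control group of all. It had 41.2, 40.9 and 41.0 FPKM in the IgG tumours (SD 0.139, n = 3) and 54.2, 47.8 and 46.8 FPKM in the anti-ENG tumours (SD 4.04, n = 3), a log2 fold change of 0.26 (limma SE 0.11, adjusted p = 0.529). PSMD8, another lid subunit, had 92.7, 99.0 and 88.4 FPKM in the IgG tumours and 113, 116 and 105 FPKM in the anti-ENG tumours, with 0.25 (limma SE 0.11, adjusted p = 0.529). PSMD14, the deubiquitinase that cuts the ubiquitin chain from the substrate, had 72.5, 69.6 and 69.0 FPKM in the IgG tumours and 101, 82.3 and 72.4 FPKM in the anti-ENG tumours. Anti-ENG 3 fell just under IgG control 1, so the groups overlapped (log2 fold change 0.26, limma SE 0.14, adjusted p = 0.55, exact permutation p = 0.2). PSMD4, a ubiquitin receptor and the most abundant cap gene, had 157, 151 and 140 FPKM in the IgG tumours and 171, 154 and 185 FPKM in the anti-ENG tumours. Its groups overlapped through anti-ENG 2 (log2 fold change 0.19, limma SE 0.12, adjusted p = 0.595). PSMD3 and PSMD11, both scaffold subunits, were at the bottom of the cap with 0.025 and 0.080. PSMD3 was the 1 gene of the 43 with its lowest value in anti-ENG 1, and its estimate was below 0 under each of the 4 other scalings, while that of PSMD11 was below 0 with the sum rescaling alone.

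Summed over subunits, both parts were higher in each anti-ENG tumour, and the core by slightly more than the cap. The core genes summed to 1897, 1775 and 1701 FPKM in the IgG tumours, in replicate order, and to 2449, 2162 and 2075 FPKM in the anti-ENG tumours. The cap genes summed to 1440, 1380 and 1338 FPKM in the IgG tumours and to 1764, 1555 and 1563 FPKM in the anti-ENG tumours. The ratio of the group means was 1.24 for the core and 1.17 for the cap. As a share of all FPKM, the core took 0.424 ± 0.0084% in the IgG and 0.485 ± 0.031% in the anti-ENG tumours, and the cap 0.328 ± 0.0048% and 0.354 ± 0.015% (SD, n = 3 each). The sum of core over cap was 1.32, 1.29 and 1.27 in the IgG tumours and 1.39, 1.39 and 1.33 in the anti-ENG tumours. These groups did not overlap, by a narrow margin between IgG control 1 and anti-ENG 3, and the mean log2 ratio was 0.37 ± 0.026 against 0.45 ± 0.038 (SD, n = 3 each), a difference of 0.084. A ratio over genes chosen with earlier results known was given no test. The difference was 0.094 with the mean of log2(FPKM + 1) in place of the sum, and 0.043 after cyclic loess normalization, where the ratios overlapped (1.29 to 1.35 and 1.32 to 1.39).

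**Figure D3:**
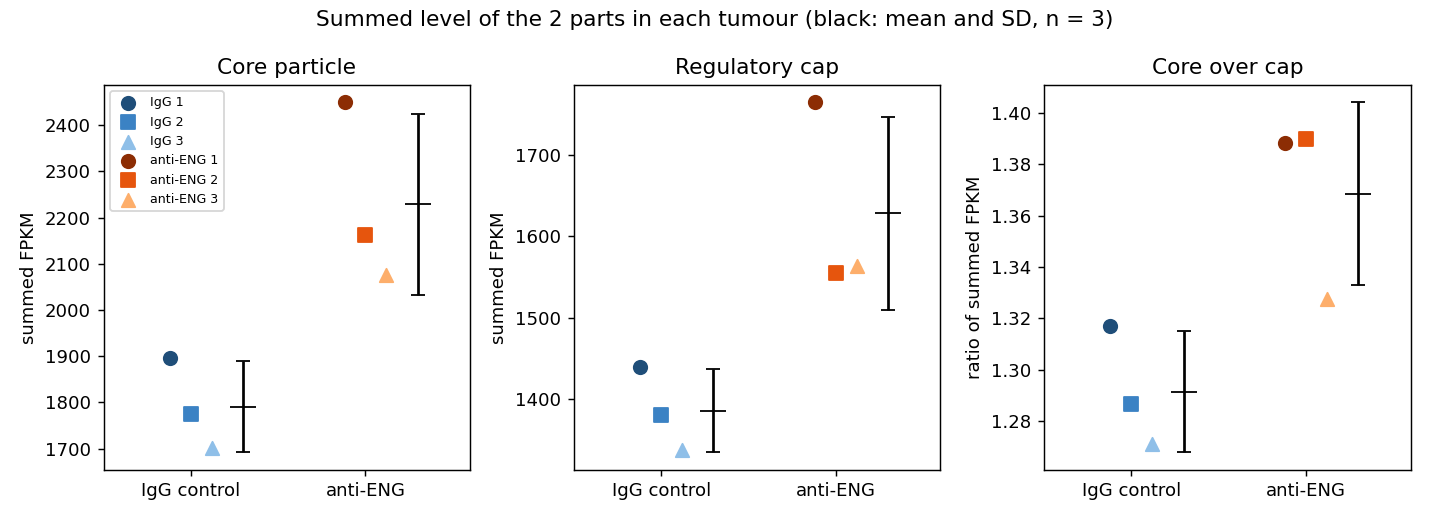
Points give, for each tumour, the summed FPKM of the 14 core genes, that of the 17 cap genes and the ratio of the sums, with the mean and SD of each group in black (n = 3); the vertical axes do not start at 0. In each panel the 3 anti-ENG tumours lie above the 3 IgG tumours, for the ratio by the narrow gap from 1.32 to 1.33.

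Assembly chaperones had higher estimates in 6 of 7 genes, a median log2 fold change of 0.27 and no overlap of the groups in 4. Of all tested genes 51.2% had higher estimates and 10.6% were apart and higher, and 0 of the 7 chaperones lay in the top 10% by level. The 4 genes apart became 1, 2 and 2 with sum rescaling, quantile and cyclic loess normalization. PSMG1, which pairs with PSMG2 to guide alpha ring assembly, had the smallest unadjusted p of the 43 genes, 0.00759. It had 32.8, 35.8 and 37.5 FPKM in the IgG tumours and 48.6, 44.7 and 45.8 FPKM in the anti-ENG tumours, means of 35.4 ± 2.38 and 46.4 ± 2 FPKM (SD, n = 3 each). The anti-ENG tumours were close together and clear of the IgG tumours, a log2 fold change of 0.38 (limma SE 0.11, adjusted p = 0.529, exact permutation p = 0.1). PSMG2 had 0.30 with overlapping groups. PSMG3 and PSMG4, which form the other pair, had estimates of opposite sign. PSMG4 had 0.27 with the groups apart, and PSMG3 had 54.2 ± 5.88 and 49.7 ± 9.2 FPKM (SD, n = 3 each), which is a log2 fold change of -0.13 (limma SE 0.16, adjusted p = 0.761). Of the cap base chaperones, PSMD9 had 18.4, 17.2 and 18.2 FPKM in the IgG tumours and 25.5, 21.3 and 19.7 FPKM in the anti-ENG tumours, a log2 fold change of 0.28 (limma SE 0.12, adjusted p = 0.529). PSMD10 (gankyrin) had 0.21 and PSMD5 0.16.

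The alternative activators, which can replace the cap on the core, had a smaller median, 0.16, than the core, cap or chaperones. PSME3, the nuclear activator, had 41.9, 45.7 and 46.0 FPKM in the IgG tumours and 47.8, 48.1 and 52.0 FPKM in the anti-ENG tumours, a log2 fold change of 0.14 (limma SE 0.10, adjusted p = 0.62). Its groups were apart by a gap smaller than the spread within either, and overlapped under each of the 4 other scalings. PSME4 had 26.8, 24.7 and 23.9 FPKM in the IgG tumours and 26.5, 22.4 and 21.4 FPKM in the anti-ENG tumours, a log2 fold change of -0.10 (limma SE 0.12, adjusted p = 0.76). PSME1 and PSME2, which form the interferon-inducible activator, had 0.20 and 0.18 with overlapping groups, and PSME2 turned to -0.027 after cyclic loess normalization. PSMF1, an inhibitor of the core, had 35.4, 29.3 and 32.9 FPKM in the IgG tumours and 40.2, 34.2 and 38.7 FPKM in the anti-ENG tumours. Anti-ENG 2 fell under IgG control 1, so the groups overlapped (log2 fold change 0.21, limma SE 0.12, adjusted p = 0.568).

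The inducible beta subunits, which take the place of the 3 proteolytic ones in the immunoproteasome, were abundant in all tumours and did not separate the groups (0 of 3 apart). PSMB8 had 133 ± 10.6 and 144 ± 20.4 FPKM, PSMB9 174 ± 31.9 and 189 ± 45.9 FPKM, and PSMB10 44 ± 12.9 and 42.8 ± 11.4 FPKM in the IgG and anti-ENG tumours (SD, n = 3 each). Their log2 fold changes were 0.11, 0.11 and -0.034, and all 3 were below 0 with sum rescaling, quantile or cyclic loess normalization. IgG control 1 and anti-ENG 2 had the highest PSMB9 and PSMB10 values in their groups. PSMB6 over its counterpart PSMB9 was 0.353, 0.475 and 0.426 in the IgG tumours and 0.6, 0.444 and 0.525 in the anti-ENG tumours. PSMB5 over PSMB8 was 0.534, 0.607 and 0.575 against 0.817, 0.552 and 0.637, so in both pairs the inducible transcript was read at the higher level. PSMB7 over PSMB10 was 2.21, 3.59 and 3.49 against 5.63, 3.37 and 4.59. All 3 ratios were highest in anti-ENG 1, and the groups overlapped in all 3 (exact two-sided permutation p of 0.2, 0.3 and 0.3, each 0.3 after Benjamini-Hochberg adjustment over the 3 ratios).

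**Figure D4:**
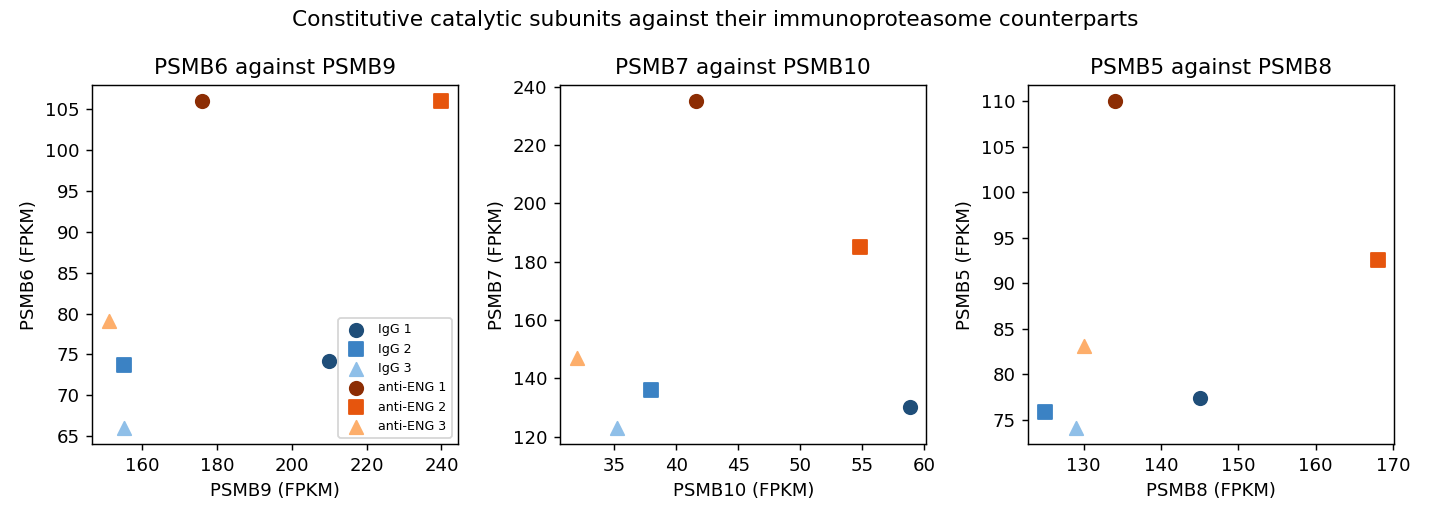
Each panel plots a proteolytic subunit gene (vertical, FPKM) against its immunoproteasome counterpart (horizontal, FPKM), with 1 point per tumour; the axes do not start at 0. The anti-ENG tumours (brown and orange) lie above the IgG tumours (blue) on each vertical axis and are mixed with them on each horizontal axis.

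Proteasome partners without a PSM symbol include cap subunits, deubiquitinases and assembly factors. Of 14 symbols listed, 11 were in the table, and those absent are newer or other names of SHFM1 and KIAA0368, which were there. Estimates were above 0 in 8 of 11, against 51.2% of all tested genes and 72% of the top 10% by level. The groups were apart with higher values in 5, against 10.6% of all tested genes, and the median log2 fold change was 0.19. With sum rescaling, quantile and cyclic loess normalization the genes apart and higher were 2, 3 and 2. TXNL1, a thioredoxin-like protein of the cap, had 45.3 ± 4.54 and 61.2 ± 6.69 FPKM (SD, n = 3 each), which is a log2 fold change of 0.42. UCHL5, a deubiquitinase of the cap, had 0.35, and the groups were apart for both. UBE3C and ZFAND5 had -0.049 and -0.018. All of these had a limma adjusted p of 0.529 or more.

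Genes listed with NFE2L1, which controls subunit transcription, had mostly lower estimates. The list is wider than the NFE2L1 pathway and also held NFE2L2 and KEAP1. Of 10 genes 9 were tested, 8 had estimates below 0 and 1 above, against 51.2% of all tested genes above 0, and the median log2 fold change was -0.25, with the groups apart and lower in 1, against 6.75% of all tested genes. That gene was DDI2, the protease that cuts NFE2L1 into its active form, with 4.65, 4.01 and 5.05 FPKM in the IgG tumours and 3.51, 3.02 and 3.38 FPKM in the anti-ENG tumours. Its log2 fold change was -0.37 (limma SE 0.13, adjusted p = 0.529), and it stayed below -0.30 whichever tumour was left out. SYVN1, a ubiquitin ligase of the endoplasmic reticulum, had -0.39 with overlapping groups, and NGLY1, which removes glycans from NFE2L1, had 0.19. NFE2L1 itself, named after its values were seen, had 59.8, 44.4 and 46.3 FPKM in the IgG tumours and 35.6, 45.5 and 57.7 FPKM in the anti-ENG tumours, so the groups overlapped (log2 fold change -0.13, limma SE 0.20, adjusted p = 0.815). The median of the 9 genes was -0.092 without IgG control 1, and -0.0099 with anti-ENG 1 left out as well, where 4 of 9 were above 0. The list thus rested on those tumours.

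The next list held ubiquitin genes, the E1 enzymes that activate ubiquitin and the shuttles that carry tagged proteins to the cap. Estimates were above 0 in 8 of 11 genes tested of 12, with a median of 0.18 and no overlap of the groups in 3. Over all tested genes 51.2% were above 0 and 10.6% apart and higher. Among the top 10% by level, which held 6 of the 11, the shares were 72% and 28.8%, close to those of the list, and the median was 0.16. The 3 genes without overlap became 0 with sum rescaling, quantile or cyclic loess normalization. The shuttle gene RAD23B, with 0.27, was 1 of them. UBA6 and UBQLN4 had -0.094 and -0.082. After cyclic loess normalization the median was -0.015, with 5 of 11 above 0. VCP, the segregase that pulls tagged proteins from membranes and complexes, and its cofactors had estimates above 0 in 8 of 11 genes, with the groups apart and higher in 2 and apart and lower in 3 (median 0.086). Over all tested genes 51.2% were above 0, 10.6% apart and higher and 6.75% apart and lower. FAF1 and NSFL1C had 0.25 and 0.32, and UBXN7 and UBXN6 had -0.25 and -0.18. In the partner, NFE2L1 and VCP lists 0 genes passed the limma adjusted threshold. At an unadjusted limma p under 0.05 there were 2 of 11 partners and 1 of 11 VCP list genes, all higher. Of the 9 NFE2L1 list genes 1 was lower at that level. Over all tested genes 5.56% were higher and 3.61% lower at that level.

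**Figure D5:**
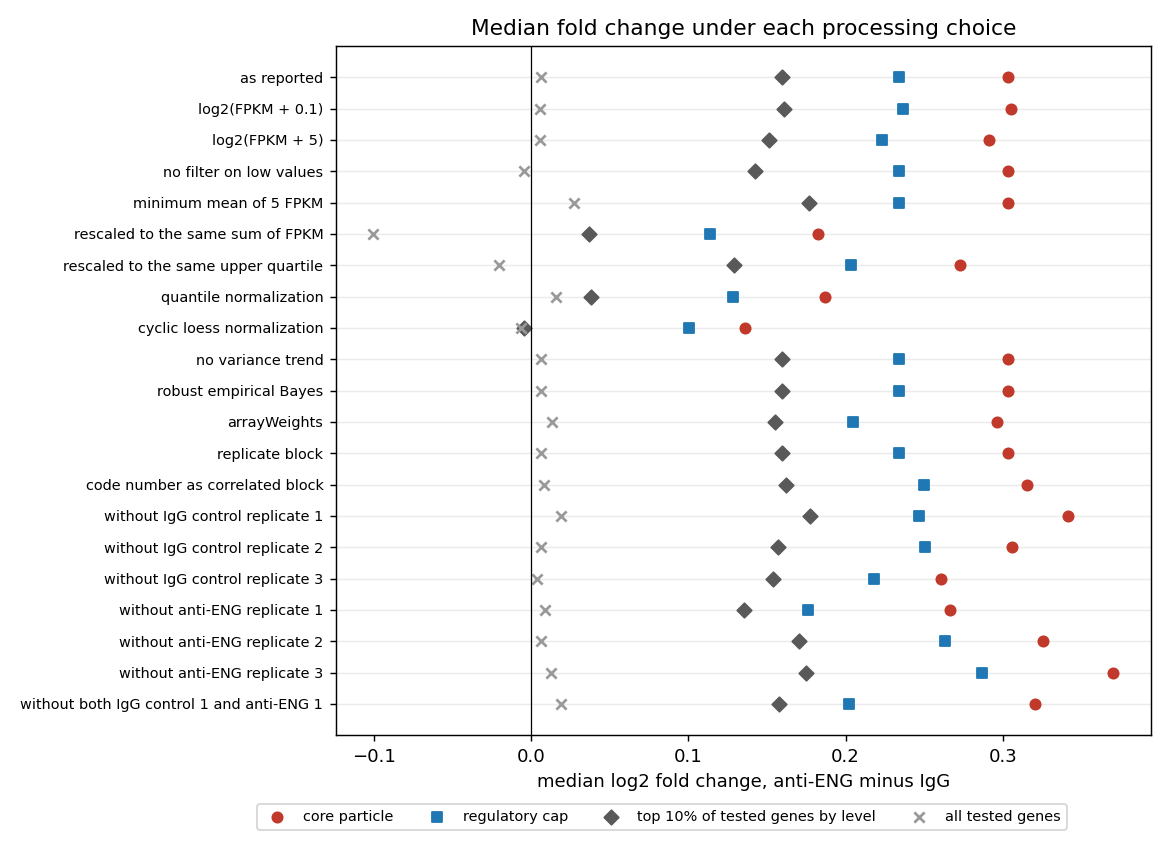
Points give the median log2 fold change of the 14 core genes, the 17 cap genes, the top 10% of tested genes by level and all tested genes, for the values as reported and under 20 other processing choices. The core lies above the cap and the cap above the top 10% of genes in every row, and the medians are smallest after cyclic loess normalization, at 0.14 for the core and 0.10 for the cap.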

How the data were processed

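Gene expression was measured by RNA sequencing of polyadenylated RNA in 3 anti-ENG and 3 IgG control tumours, grouped by sample title. The authors deposited 1 table of FPKM values, with 1 column per tumour. Per the submitters' processing notes the build was human GRCh37 (hg19), and the tools named are Cufflinks 2.2.1, Cuffnorm, TopHat2 2.0.10, SAMtools 0.1.1.9, Bowtie 1.0.0 and FastQC 0.10.1. The Cuffnorm scaling, the annotation and strand use are not given in the sources used here. Per the labels' protocols, 2 library kits and 2 instruments were used with no word on which tumour had which, so such a difference and treatment cannot be told apart if they coincided.

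FPKM are not counts, so limma 3.58.1 in R 4.3.3 was fitted, with no covariate and a trended variance, to log2(FPKM + 1) of the 12586 genes whose mean was 1 FPKM or more. P-values are two-sided and Benjamini-Hochberg adjusted over these genes, with a threshold of 0.05. The fit was tested on simulated data with independent genes and tumours, which cannot show the effect of any tumours that share an animal. Description codes share a number, followed by L in one and R in the other, in IgG control 2 and 3 and in anti-ENG 1 and 2. Whether these tumours shared an animal is not in the labels. All tests and SDs treat tumours as independent, so n counts tumours and p-values measure only the spread between these samples. Members and lists were chosen with earlier results of these data known. Every proteasome gene could be named. Values in each tumour were given for the 4 core and 4 cap genes and the 2 chaperones of smallest unadjusted p, PSMB5, PSMB6, PSMB7, PSMD14, PSMD4, PSME3, PSME4 and PSMF1, and of each pathway list the 2 genes of smallest p in each direction were named, of which 1 is not reported here. Depth was placed by the FPKM worth of a single fragment, read from values of 0.05 FPKM or less, relative to IgG control 1, and in the other 5 tumours 47.5 to 50.9% of such genes lay at that step.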

Additional observations from a re-analysis of the deposited data

How the results depend on the processing

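No gene of the 43, and no tested gene, passed the adjusted threshold under any of 20 alternatives (0 genes each), and the core and cap medians stayed above 0 in all of them. The medians moved by more than the spread between tumours in 3: to 0.18 for the core and 0.11 for the cap with the same sum of FPKM, 0.19 and 0.13 with quantile and 0.14 and 0.10 with cyclic loess normalization, where the core over cap difference was 0.043. The number of genes apart and higher was then 9, 10 and 6, and with the same sum 1 gene, PSME4, was apart and lower. Under all 5 scalings 5 of the 43 genes were apart and higher: PSMA3, PSMB2, PSMC2, PSMD12 and PSMG1. How many of all tested genes were so is not given here. Of the 43, 11 had an unadjusted p under 0.05 as reported, and 0, 2 and 2 with the same sum, quantile and cyclic loess normalization. That number was 7 with upper quartile rescaling, 17 with no filter and 18 with tumours of 1 code number as a correlated block (estimated correlation -0.188). Leaving out each tumour gave 2 to 16 such genes, the fewest without IgG control 3, then 4 without IgG control 2 and 6 without anti-ENG 1 or 2. It gave medians of 0.26 to 0.37 for the core and 0.18 to 0.29 for the cap. It also gave 22 to 35 genes apart and higher, with 35 without IgG control 1. There were 36 without both IgG control 1 and anti-ENG 1. Without anti-ENG 1, and without both, 2 genes were apart and lower, PSME4 and PSMG3. Fewer tumours make such gaps easier.

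With replicate number as a block the core median was 0.30 and 7 of the 43 genes had an unadjusted p under 0.05 (smallest adjusted p 0.641). Deviations of same-numbered tumours correlated at -0.33, 0.19 and 0.037 across genes, and not every tumour correlated best with its own number, so the block does not pair tumours. Of 860 estimates of the 43 genes under the alternatives, 13 changed sign, in 5 genes. PSMC4 was -0.038 with the same sum, -0.040 with quantile and -0.079 with loess normalization. PSMD3 was -0.095, -0.050 and -0.073 in these and -0.0056 with upper quartile rescaling, and ran from -0.054 to 0.13 with a tumour left out. PSMD11 was -0.036 with the same sum and ran from -0.041 to 0.22 with a tumour left out. After loess PSMA1 was -0.0094 and PSME2 -0.027.

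Outside the 43, with the same sum, quantile and loess in turn, PSMB8 was -0.011, -0.015 and -0.060, and PSMB9, also the median of the 3 inducible subunits, was -0.012, -0.026 and -0.079. With a tumour left out PSMB8 ran from -0.0033 to 0.18, PSMB9 from -0.076 to 0.26 and their list median from -0.076 to 0.19, PSMB10 from -0.22 to 0.19, NFE2L1 from -0.30 to 0.042, UBE3C from -0.12 to 0.041, ZFAND5 from -0.082 to 0.087 and UBQLN4 from -0.20 to 0.0083. With sample weights PSMB10 was 0.063 and NFE2L1 0.030, and PSMB10 was 0.020 with the code block. Without both IgG control 1 and anti-ENG 1, PSMB10 was 0.19, NFE2L1 0.17, UBE3C 0.023 and UBA6 0.029. The VCP list median was -0.033 with the same sum, and the ubiquitin list median -0.015 after loess. The total depth is unknown, and 3 tumours a group limit what the test can call.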
